A study of Danio rerio with 8 samples.

Results

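The genes described are 9 genes of the embryonic fin fold and of the skin's attachment to the tissue beneath it in zebrafish: the actinodins and1, and2 and and3, the Fras complex genes fras1, frem1a, frem2a and frem2b, and the hemicentins hmcn1 and hmcn2. They were taken by symbol from the deposited gene table, which has 36351 rows, and each of the 9 symbols matched 1 row. All 9 passed the filter on low counts and are among the 22467 genes tested. Whole embryos at 26 hours post fertilisation (hpf) were collected in pools, 4 pools of MZ osgep G177A/G177A embryos, called mutant here, and 4 pools of wild-type embryos. MZ stands for maternal-zygotic, so the mothers of the mutant embryos carried the allele too. osgep encodes the catalytic subunit of KEOPS, a complex that modifies the tRNAs reading codons that begin with A. The labels name no strain and do not tie the pools to clutches, so the p-values measure only the spread between these pools, which may be partly technical. Reads come from the whole embryo, and fewer cells of a type cannot be told apart from less RNA per cell. Stage is labelled in hpf alone, and whether both genotypes had reached the same developmental stage was not tested.

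At this stage the fin is a thin fold of epidermis with little mesenchyme inside. Actinodins are structural proteins of the actinotrichia, the stiff unmineralised fibrils that hold the fold open. Fras1 and the Frem proteins form a complex made largely by epidermal cells, which lies beneath the lamina densa of the basement membrane and anchors it to the dermis, and hemicentins are very long extracellular proteins of the immunoglobulin superfamily that act at the same border. Zebrafish that lack fras1, frem1a, frem2a or hmcn1 develop blisters in the fin fold, and loss of FRAS1 or FREM2 causes Fraser syndrome in humans. RefSeq's table for the assembly GRCz12tu, used for gene order alone, shows no 2 of these 9 genes as immediate neighbours.

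Levels are given as CPM, counts relative to the library total after TMM scaling, for pools 1 to 4 of a genotype in turn, and differences are log2 fold changes of mutant minus wild type with their standard error (SE). Levels are compared between libraries and not between genes, since transcript lengths were not used. Totals ran from 21290942 to 27675104 counts per library. The osgep transcript measured 10.7 ± 2.25 CPM in mutant and 19.2 ± 3.24 CPM in wild-type pools (SD, n = 4 each), a level that does not read the G177A change itself. Counts of ribosomal protein genes, 79 rows, took 16.0%, 7.81%, 9.50% and 10.7% of the mutant libraries and 15.5%, 11.4%, 14.3% and 8.61% of the wild-type libraries. Mutant pool 1 and wild-type pools 1 and 3 are thus alike in this share, as are mutant pool 2 and wild-type pool 4, across the genotypes. On the second principal component, which held 28.8% of the variance, mutant pool 1 at 109.2 and wild-type pool 4 at −78.5 lay farthest apart. Summed hatching gland markers stood at 1558, 1915, 1138 and 1088 CPM in the mutant pools and at 247, 197, 171 and 1363 CPM in the wild-type pools, where pool 4 stands with the mutants.

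The clearest difference was in the actinodins. Transcripts of and1 and and2 stood at 15.3% and 14.2% of their wild-type level in the mutant pools, while frem1a was modestly lower and hmcn1 modestly higher. Of the 9 genes 3 fell and 1 rose past the threshold, an adjusted p under 0.05 from the quasi-likelihood fit of edgeR over all tested genes, which is 44.4%. Over all tested genes 32.2% were called, 16.3% lower and 15.8% higher in the mutant. The median log2 fold change was −0.14 over the 9 genes and 0.0042 over all tested genes. In the same 4 genes the libraries of the 2 genotypes did not overlap, which held for 33.7% of all tested genes. The 9 genes were chosen with earlier results of these data known, so their share cannot be read as an excess over all tested genes.

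**Figure D1:**
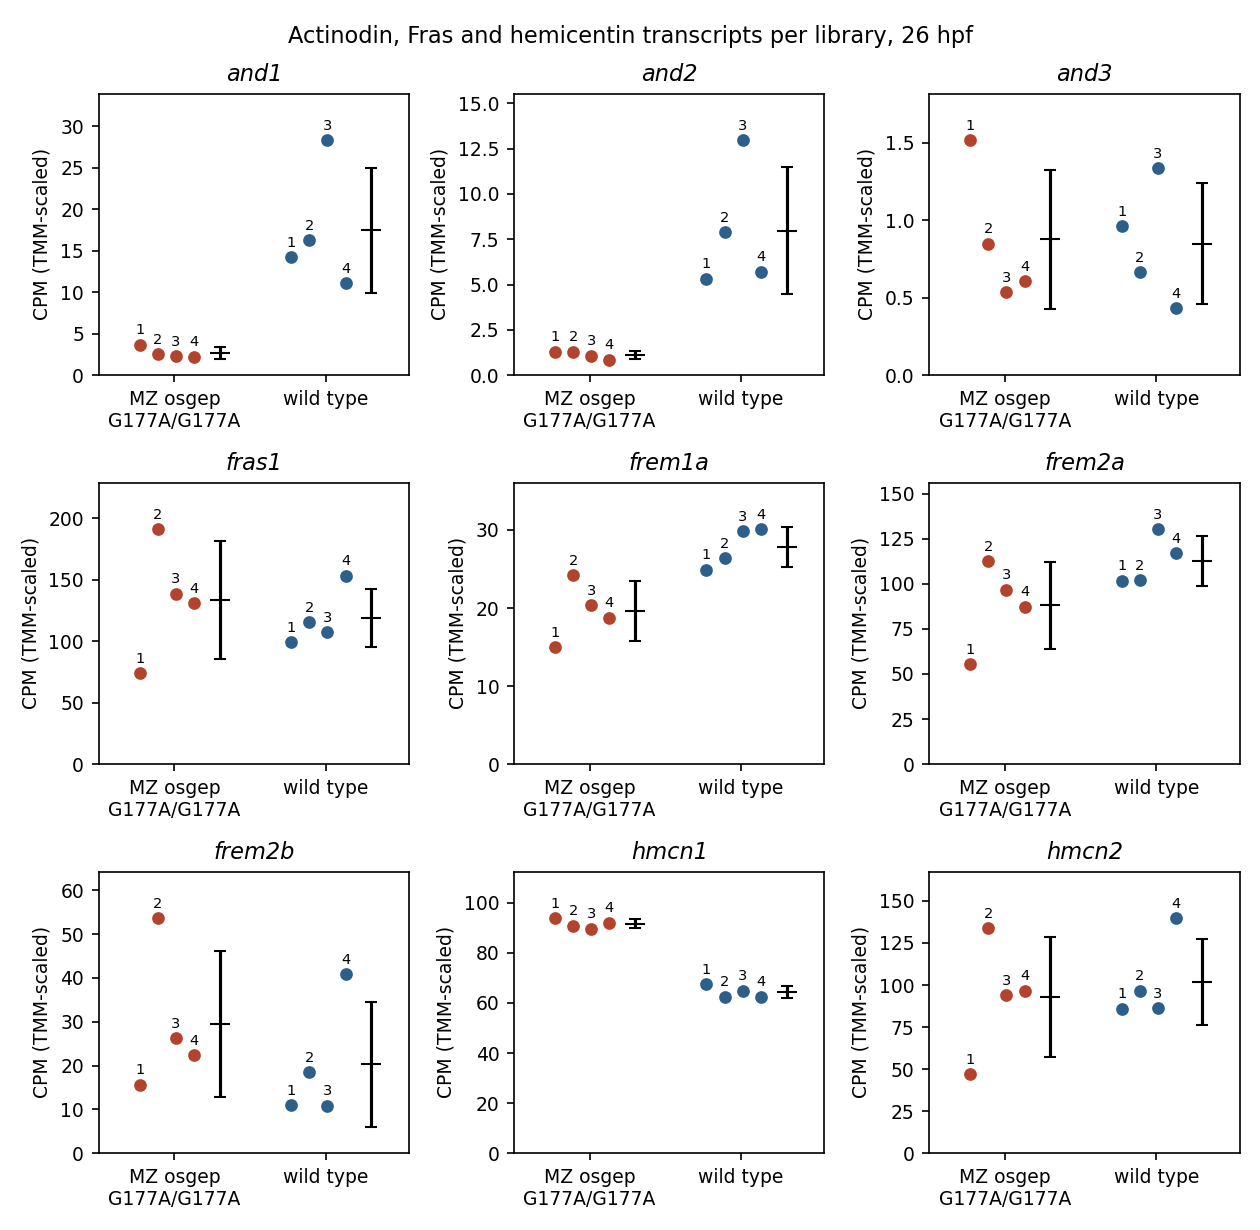
CPM after TMM scaling (vertical axis, from 0) of the 9 genes in each library, numbered by pool, with mutant libraries in red and wild-type libraries in blue; black bars are the mean and SD of 4 libraries. The genotypes do not overlap for and1, and2, frem1a and hmcn1, and they overlap for and3, fras1, frem2a, frem2b and hmcn2.

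and1 (ENSDARG00000088514) encodes an actinodin of the fin fold. It stood at 3.66, 2.54, 2.26 and 2.21 CPM in the mutant pools, against 14.2, 16.3, 28.3 and 11.1 CPM in the wild-type pools. The highest mutant pool thus lay well below the lowest wild-type pool, and the wild-type pools themselves spanned 2.55-fold, with pool 3 on top and pool 4 at the bottom. The mutant mean was 2.67 ± 0.677 CPM and the wild-type mean 17.5 ± 7.53 CPM (SD, n = 4 each), so the mutant held 15.3% of the wild-type level. The log2 fold change was −2.71 (SE 0.32, 95% interval −3.44 to −1.98, edgeR adjusted p = 0.000496). Of the tested genes, 1.33% had a log2 fold change as low as this or lower. Its estimated counts were fractional in 4 of the 8 libraries, as RSEM gives where reads match more than 1 place.

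and2 (ENSDARG00000079302), the second actinodin gene, followed the same pattern. Its levels were 1.304, 1.29, 1.07 and 0.857 CPM in the mutant pools and 5.33, 7.87, 12.9 and 5.72 CPM in the wild-type pools. Again no mutant pool reached a wild-type pool, and wild-type pool 3 was the highest. The mutant mean of 1.13 ± 0.212 CPM was 14.2% of the wild-type mean of 7.97 ± 3.51 CPM (SD, n = 4 each; log2 fold change −2.81, SE 0.33, edgeR adjusted p = 0.000466). An exact two-sided permutation test of log2 CPM gave p = 0.0286 for and1 and and2, and likewise for frem1a and hmcn1. This is the smallest p that 4 against 4 libraries allow. It follows wherever the 2 genotypes do not overlap, so it adds nothing beyond that. The proportion of and1 to and2 counts overlapped between the genotypes. The ratio of and1 to and2 was 2.81, 1.96, 2.11 and 2.60 in the mutant pools and 2.66, 2.07, 2.18 and 1.94 in the wild-type pools, with means of 2.37 ± 0.401 in the mutant and 2.21 ± 0.317 in wild type (SD, n = 4 each).

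and3 (ENSDARG00000056873) was scarce, with 11 to 36 counts per library, and showed no difference past the threshold. It measured 1.52, 0.847, 0.536 and 0.607 CPM in the mutant pools and 0.962, 0.666, 1.33 and 0.431 CPM in the wild-type pools. Both genotypes cover the same range. The log2 fold change of 0.051 had a 95% interval from −0.996 to 1.098 (adjusted p = 0.947 by edgeR), so a change of about 2-fold in either direction lies inside the interval. The sign of this small difference turned when mutant pool 1 (−0.345), wild-type pool 2 (−0.063) or wild-type pool 4 (−0.17) was left out.

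The table holds a further actinodin row, and4, which carries no Ensembl identifier and was looked up after its values were seen. It had no count in any mutant library, against 14, 15, 15 and 10 counts in the wild-type libraries. With the mutant group set to 3 counts over its 4 libraries, the wild-type level was 19.02-fold the mutant level after scaling for depth. This ratio rests on the set count and leaves out the sampling error of the wild-type counts. On the counts themselves and4 was called lower (adjusted p = 0.00159 by edgeR). Among the member actinodins, and1 and and2 were lower in the mutant and and3 did not pass. Over all tested genes 16.3% were lower. The row of and4, picked after its values were seen, is not counted with them.

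**Figure D2:**
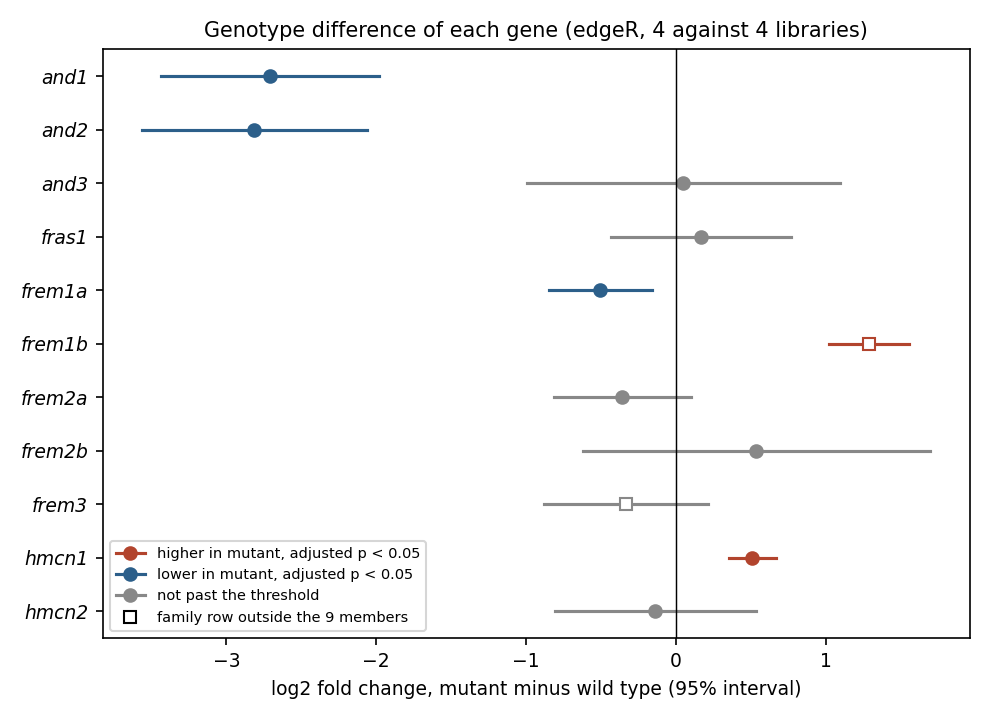
Log2 fold change of mutant minus wild type (horizontal axis) with its 95% interval for the 9 genes (circles) and for frem1b and frem3 (open squares); red is higher and blue lower in the mutant at an adjusted p under 0.05, grey is not past the threshold. and1 at −2.71 and and2 at −2.81 stand far to the left of all others, and frem1a (−0.50) and frem1b (1.29) lie on opposite sides of 0.

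Within the Fras complex genes 1 of 4 members was called, where 32.2% of all tested genes were called. frem1a (ENSDARG00000069473), whose loss gives the fin blister mutant rafels, was lower in the mutant at 15.0, 24.2, 20.4 and 18.8 CPM, against 24.9, 26.4, 29.9 and 30.1 CPM in wild type. The gap between the genotypes was narrow, with mutant pool 2 just below wild-type pool 1. Means were 19.6 ± 3.81 CPM in the mutant and 27.8 ± 2.57 CPM in wild type (SD, n = 4 each; log2 fold change −0.50, SE 0.15, edgeR adjusted p = 0.0326). The call was lost when 1 of 5 libraries was left out, with adjusted p = 0.0692 without mutant pool 3, 0.0873 without mutant pool 4, and 0.0706, 0.0864 and 0.0635 without wild-type pools 2, 3 and 4 (edgeR). Across the 18 alternatives tried, the adjusted p of frem1a lay between 0.000521 and 0.0873.

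fras1 (ENSDARG00000054619), the gene of the membrane-bound core of the complex and of the mutant pinfin, did not pass. It measured 74.0, 191, 139 and 131 CPM in the mutant pools and 99.1, 116, 107 and 153 CPM in the wild-type pools. The mutant pools hold both the lowest and the highest value of the series. The log2 fold change was 0.17 with a 95% interval from −0.43 to 0.77 (adjusted p = 0.672 by edgeR), and its sign turned without mutant pool 2 (−0.049).

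The paralogues frem2a and frem2b encode versions of the Frem2 subunit. frem2a (ENSDARG00000076856), the gene of the mutant blasen, stood at 55.4, 112, 96.7 and 87.4 CPM in the mutant pools, against 102, 102, 130.1 and 117 CPM in wild type. Mutant pool 1 was low, and mutant pool 2 lay among the wild-type pools (log2 fold change −0.36, 95% interval −0.81 to 0.0999, adjusted p = 0.213 by edgeR). frem2b (ENSDARG00000102626) was the most variable member, at 15.7, 53.6, 26.3 and 22.4 CPM in the mutant pools and 10.9, 18.4, 10.8 and 40.9 CPM in the wild-type pools. Its wild-type pools alone spanned 3.78-fold, and the log2 fold change of 0.54 had an interval from −0.62 to 1.70 (adjusted p = 0.469 by edgeR). Leaving out wild-type pool 4 moved it to 1.14 (adjusted p = 0.0735) and leaving out mutant pool 2 to 0.084 (adjusted p = 0.924, both by edgeR). Its counts were fractional in 3 libraries. The count ratio of frem2a to frem2b was 3.54, 2.10, 3.68 and 3.90 in the mutant pools and 9.31, 5.54, 12.1 and 2.86 in the wild-type pools. Wild-type pool 4 lay inside the mutant range, and the other wild-type pools above it.

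Both other Frem genes in the table, frem1b and frem3, belong to the list of Fras complex partners. frem1b (ENSDARG00000062402), the paralogue of frem1a, rose to 88.9, 119.8, 104 and 109 CPM in the mutant pools, against 41.4, 38.6, 43.3 and 49.1 CPM in wild type. Every mutant pool exceeded every wild-type pool (log2 fold change 1.29, SE 0.12, edgeR adjusted p = 0.000134). The ratio of frem1a to frem1b counts, formed after the values were seen, was 0.185 ± 0.0164 in the mutant and 0.647 ± 0.0457 in wild type (SD, n = 4 each). Within a genotype this ratio hardly varied, from 0.169 to 0.202 in the mutant and from 0.602 to 0.689 in wild type. frem3, at 170 ± 53.4 CPM in the mutant and 215 ± 39.7 CPM in wild type, did not pass (adjusted p = 0.336 by edgeR).

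Of the paralogous hemicentins, hmcn1 was called and hmcn2 was not. hmcn1 (ENSDARG00000016936), the gene of the blister mutant nagel, was higher in the mutant at 93.8, 90.9, 89.6 and 92.0 CPM, against 67.4, 62.4, 65.0 and 62.4 CPM in wild type. It was the steadiest member, with a highest-to-lowest ratio of 1.047 among mutant pools and 1.08 among wild-type pools. Means were 91.6 ± 1.78 CPM and 64.3 ± 2.38 CPM (mutant and wild type, SD, n = 4 each), a 1.42-fold difference with a log2 fold change of 0.51 (SE 0.069, 95% interval 0.35 to 0.67, adjusted p = 0.000921 by edgeR). hmcn2 (ENSDARG00000086060), which acts redundantly with fibulin 1 in the zebrafish fin fold, stood at 47.1, 133.8, 93.8 and 96.6 CPM in the mutant pools and 85.9, 96.6, 86.1 and 139.6 CPM in the wild-type pools. The extremes again fall in mutant pool 1 and in mutant pool 2 with wild-type pool 4. The log2 fold change was −0.14 with an interval from −0.81 to 0.53 (adjusted p = 0.765 by edgeR), and its sign turned without mutant pool 1 (0.085) or wild-type pool 4 (0.052). The count ratio of hmcn1 to hmcn2 was 1.99, 0.679, 0.955 and 0.953 in the mutant pools and 0.784, 0.646, 0.755 and 0.447 in the wild-type pools. These ranges overlap, with mutant pool 2 inside the wild-type range, and the difference between the paralogues was not tested.

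The spread between pools was shared by several members. Ordered by their ribosomal protein share, the 8 libraries run from mutant pool 2 through wild-type pool 4, mutant pools 3 and 4 and wild-type pools 2, 3 and 1 to mutant pool 1. fras1 falls at each step along this order, at 191, 153, 139, 131, 116, 107, 99.1 and 74.0 CPM, with both genotypes on the same course. frem2b and hmcn2 were likewise highest in mutant pool 2 and wild-type pool 4, while hmcn1 stayed within 89.6 to 93.8 CPM in the mutant and 62.4 to 67.4 CPM in wild type along the same order. What sets this share was not tested. Within each genotype fras1, frem2b and hmcn2 ran broadly opposite to it. frem1a and frem2a also fell at each step of this order in the mutant pools, but not in the wild-type pools. After the genotype means were removed, log2 CPM of frem1a and frem2a correlated with that of fras1 at Pearson r = 0.92 and 0.87. For frem2b and hmcn2 r was 0.86 and 0.99.

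**Figure D3:**
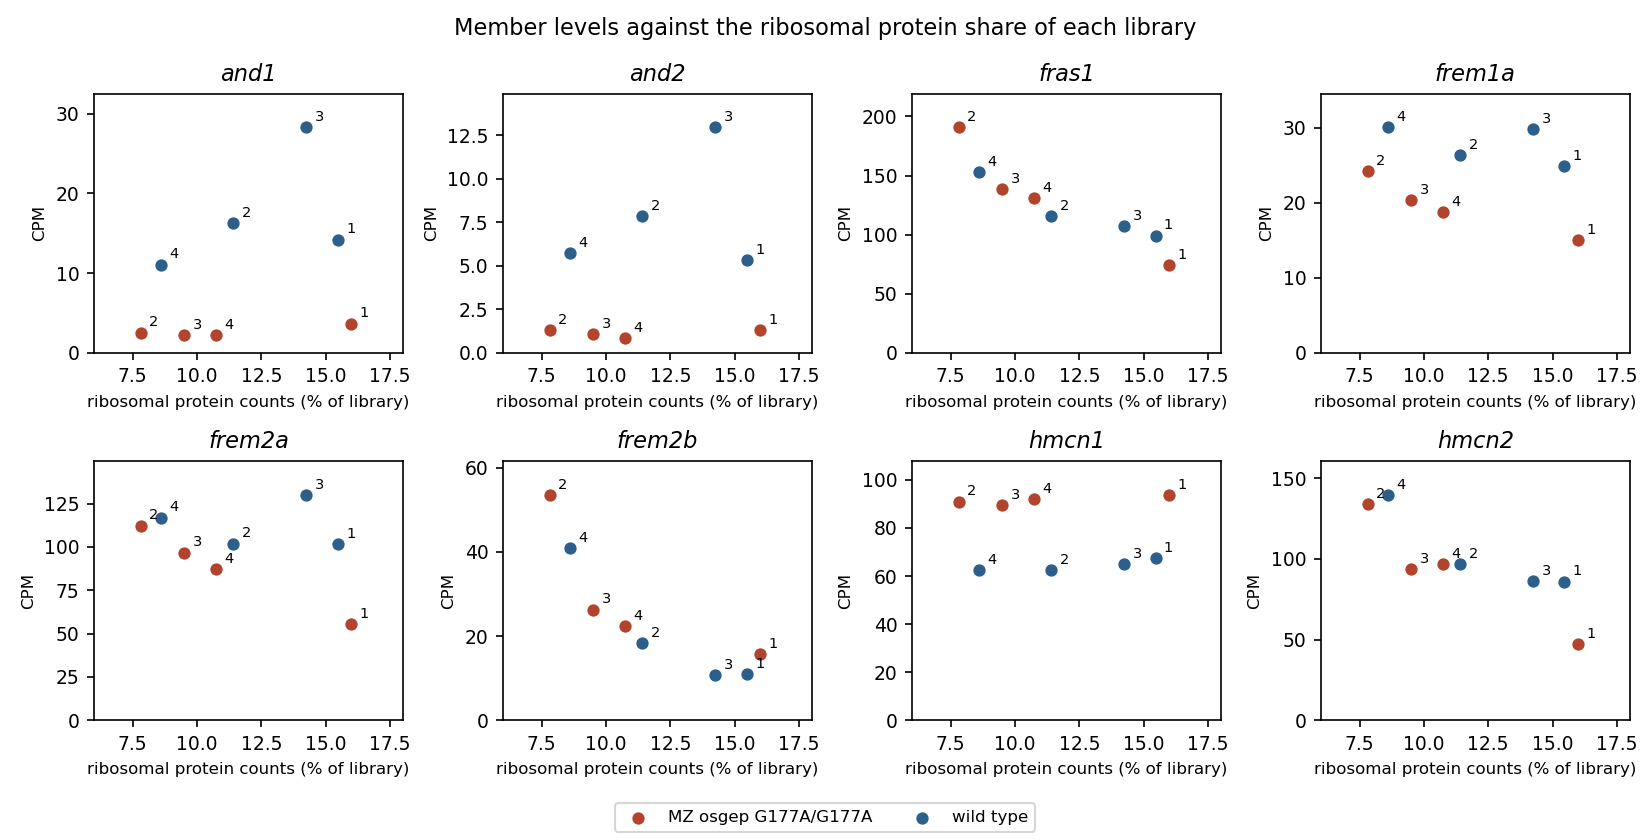
CPM (vertical axis, from 0) of 8 of the 9 genes against the percentage of each library's counts that fell on ribosomal protein genes (horizontal axis), with mutant libraries in red and wild-type libraries in blue, numbered by pool. fras1 declines along the axis in both genotypes, hmcn1 forms 2 level bands, and and1 and and2 stay low in all 4 mutant libraries at shares from 7.81% to 16.0%.

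When the share of ribosomal protein counts was added to the fit, the falls of and1 (log2 fold change −2.55, adjusted p = 6.67e-05) and and2 (−2.73, adjusted p = 0.000106) and the rise of hmcn1 (0.53, adjusted p = 2.09e-05) kept nearly the same size. In that fit frem1a (−0.61, adjusted p = 0.000521), frem2a (−0.51, adjusted p = 0.0270) and hmcn2 (−0.42, adjusted p = 0.00796) were also lower in the mutant and fras1 was not called (−0.088, adjusted p = 0.444, all by edgeR). That makes 5 lower and 1 higher, where 51.4% of all tested genes were called, 26.4% lower and 25.0% higher. Leaving out mutant pool 1 and wild-type pool 4, the libraries farthest apart on the second principal component, an alternative chosen after seeing the data, gave 3 lower and 3 higher, where 50.4% of the tested genes were called, 25.3% lower and 25.0% higher. There and1 (−3.06), and2 (−3.02) and frem1a (−0.36, adjusted p = 0.0452) fell, while hmcn1 (0.48), fras1 (0.52, adjusted p = 0.0198) and frem2b (1.34, adjusted p = 0.0279) rose. hmcn2 then had a log2 fold change of 0.27 and was not called (adjusted p = 0.14, edgeR). For fras1, frem2b and hmcn2, mutant pool 1 was the lowest mutant pool and wild-type pool 4 the highest wild-type pool. Leaving both out raises these fold changes by construction, so the calls of fras1 and frem2b there are not evidence of a rise. The differences of fras1, frem2a, frem2b and hmcn2 thus depended on how the pools were handled, and those of and1, and2 and hmcn1 passed in all 18 alternatives. The share of genes called over the table moved as well: it was 37.5%, 27.3%, 24.7% and 24.3% without mutant pools 1 to 4 in turn, and 25.6%, 23.2%, 23.4% and 33.8% without wild-type pools 1 to 4. It was 32.1% with RLE scaling, 32.5% with upper quartile scaling, 31.2% with total counts only, 22.0% with no filter, 34.0% with a stricter one, 32.4% without robust estimation, 32.0% with the replicate block and 30.6% with DESeq2. By groups that do not overlap, 17.6% of genes were lower and 16.0% higher in the mutant.

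The 6 lists of related genes gave 19 higher and 16 lower among 83 tested genes, 42.2% called. Over all tested genes 32.2% were called, 16.3% lower and 15.8% higher. The share called was 66.7% of the tested Fras complex partners, 46.2% of the matrix and adhesion genes and 22.7% of the basement membrane genes. It was 33.3% of the collagen and lysyl hydroxylase genes, 42.9% of the ridge regulators and 83.3% of the Hox13 genes. The lists were chosen with earlier results of these data known, so these shares cannot be read as an excess over all tested genes. In the list of Fras complex partners 3 of 9 tested genes rose and 3 fell, with a median log2 fold change of −0.33. Beside frem1b these were furina, which encodes a proprotein convertase and whose loss gives the fin mutant sturgeon (61.4 ± 6.78 CPM in the mutant and 43.2 ± 5.20 CPM in wild type, SD, n = 4 each), and npnt, which encodes the Fras-associated matrix ligand nephronectin (30.4 ± 2.79 CPM in the mutant and 22.5 ± 0.9997 CPM in wild type). grip1, whose product carries Fras1 to the cell surface in mammals, fell to 28.4 ± 2.16 CPM in the mutant, against 45.6 ± 3.57 CPM in wild type (log2 fold change −0.68, adjusted p = 0.00112 by edgeR). The other 2 that fell, vwa2 (9.54 ± 4.24 CPM in the mutant and 21.1 ± 5.43 CPM in wild type) and furinb (11.02 ± 0.544 CPM in the mutant and 14.9 ± 2.74 CPM in wild type), are named after their values were seen. Both lay close to the threshold, and with 1 library left out the number of partners that fell ran from 1 to 3, being 1 without any 1 of mutant pools 2, 3 and 4 and wild-type pools 1, 2 and 3, and 2 without wild-type pool 4. It was 1 with RLE scaling or no filter, and 5 with the share of ribosomal protein counts in the fit.

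Genes of the fin fold matrix and of adhesion rose in 5 of 13 cases and fell in 1, with a median of 0.56. fn1b, a fibronectin gene, had a log2 fold change of 1.92, at 329 ± 120.6 CPM in the mutant and 86.8 ± 24.7 CPM in wild type (SD, n = 4 each). bmp1a, whose product trims fibrillar procollagens, stood at 97.6 ± 2.94 CPM in the mutant and 63.5 ± 3.99 CPM in wild type, lama5, a laminin chain gene, at 357 ± 127 and 160.0 ± 42.1 CPM, and fbln1, the fibulin 1 gene, at 132 ± 30.8 and 85.1 ± 4.49 CPM. The other gene that rose was tinagl1, and the gene that fell was hapln1a (265 ± 51.2 CPM in the mutant and 372 ± 28.1 CPM in wild type), both named after their values were seen. hapln1a was no longer called without any 1 of mutant pools 2 and 3 and wild-type pools 2, 3 and 4. The call of fbln1 ended without wild-type pool 2 (adjusted p = 0.0613 by edgeR). With 1 library left out the number that rose ran from 3, without wild-type pool 2, to 9, without mutant pool 1, and was 10 without mutant pool 1 and wild-type pool 4 together. The number that fell was 0 with total counts only and 2 with the share of ribosomal protein counts in the fit.

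Among 22 basement membrane genes 4 rose and 1 fell, 22.7% called, with a median of 0.37. lamb1a (452 ± 141 CPM in the mutant and 187 ± 49.8 CPM in wild type) and nid1b, a nidogen gene (121 ± 21.5 and 64.5 ± 10.97 CPM), rose, while lamb2, another laminin beta chain gene, fell to 48.0 ± 4.35 CPM, against 94.6 ± 7.80 CPM in wild type (SD, n = 4 each). The other gene that rose, nid2a, is named after its values were seen. agrn, the agrin gene, measured 207 ± 44.8 CPM in the mutant and 140 ± 16.1 CPM in wild type, and its call was lost without mutant pool 2, 3 or 4 or wild-type pool 1, 2 or 3 (adjusted p from 0.0672 to 0.0888 by edgeR). The number that rose was 2 without any 1 of these 6 libraries, and 8 without mutant pool 1 or wild-type pool 4. It was 2 with total counts only, 7 with DESeq2, 8 with the share of ribosomal protein counts in the fit and 11 without mutant pool 1 and wild-type pool 4 together. The number that fell was 2 without mutant pool 2 or with upper quartile scaling, and 4 with that share in the fit. Within each genotype their summed level put the pools in the same order as fras1, with 2663, 5342, 4132 and 3826 CPM in the mutant and 2374, 2772, 2468 and 3704 CPM in wild type.

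Of the 12 tested genes on the list of actinotrichia collagens and lysyl hydroxylases, 3 rose and 1 fell. Those that rose were the lysyl hydroxylase genes plod1a (96.7 ± 19.8 CPM in the mutant and 47.1 ± 5.17 CPM in wild type), plod3 (166 ± 34.04 and 82.2 ± 13.9 CPM) and plod2 (80.5 ± 15.4 and 52.8 ± 5.12 CPM), which modify collagen chains. col1a1a, a collagen I chain gene, fell to 507 ± 70.2 CPM in the mutant, against 1062 ± 99.4 CPM in wild type (SD, n = 4 each; log2 fold change −1.07, adjusted p = 0.000734 by edgeR). The other collagen genes on the list did not pass. The collagen II chain genes col2a1a and col2a1b are named after their values were seen. col2a1a stood at 1084 ± 182 CPM in the mutant and 1372 ± 101 CPM in wild type (edgeR adjusted p = 0.12). col2a1b stood at 473 ± 8.34 and 555 ± 24.1 CPM (edgeR adjusted p = 0.0773). For both genes every mutant pool was below every wild-type pool, which held for 17.6% of all tested genes. The number that rose was 5 without mutant pool 1. The number that fell was 5 with the share of ribosomal protein counts in the fit, and 2 with upper quartile scaling or with DESeq2.

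Genes listed as regulators of the fin fold ridge went both ways, 4 of 21 higher and 5 lower, with a median of −0.0010. Read from whole embryos, their levels are not those of the ridge alone. fgf8a (35.9 ± 5.13 CPM in the mutant and 17.9 ± 0.939 CPM in wild type) and fgf24 (6.76 ± 0.717 and 3.19 ± 0.607 CPM), both fibroblast growth factor genes, rose. msx3, a homeobox gene (36.8 ± 3.02 and 50.9 ± 2.76 CPM), and sp8b, a zinc finger factor gene of the ridge (73.5 ± 6.84 and 112 ± 16.8 CPM), fell (SD, n = 4 each). The others called were bmp2b and bmp4, which rose, and dlx2a, dlx6a and fgf4, which fell, named after their values were seen. tp63, the regulator of basal epidermis, was level at 64.5 ± 6.56 CPM in the mutant and 64.5 ± 6.23 CPM in wild type (95% interval of the log2 fold change −0.24 to 0.24).

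The Hox13 genes, which pattern the posterior body and the fins, fell in 5 of 6 cases with none higher, where 16.3% of all tested genes were lower. Their median log2 fold change was −1.49. hoxb13a stood at 1.07 ± 0.172 CPM in the mutant and 5.85 ± 1.86 CPM in wild type, hoxc13a at 7.08 ± 0.673 and 20.4 ± 6.36 CPM, hoxc13b at 4.23 ± 1.42 and 14.2 ± 5.66 CPM, and hoxa13a at 3.61 ± 1.04 and 9.89 ± 4.03 CPM (SD, n = 4 each). The other gene that fell was hoxd13a (4.19 ± 1.27 CPM in the mutant and 9.11 ± 2.69 CPM in wild type), and hoxa13b did not pass (adjusted p = 0.0514 by edgeR). For 3 of the 6 genes every mutant pool was below every wild-type pool, which held for 17.6% of all tested genes. hoxa13a and hoxd13a were called, but their genotypes overlapped. With 1 library left out the number that fell ran from 4 to 6. The summed level of the list was 29.2, 17.8, 22.8 and 22.0 CPM in the mutant pools and 82.6, 61.1, 84.3 and 34.8 CPM in the wild-type pools. Wild-type pool 3 was the highest and wild-type pool 4 the lowest in wild type, as for and1. Wild-type pool 1 exceeded wild-type pool 2, unlike for and1, and and2 was lowest in wild-type pool 1.

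**Figure D4:**
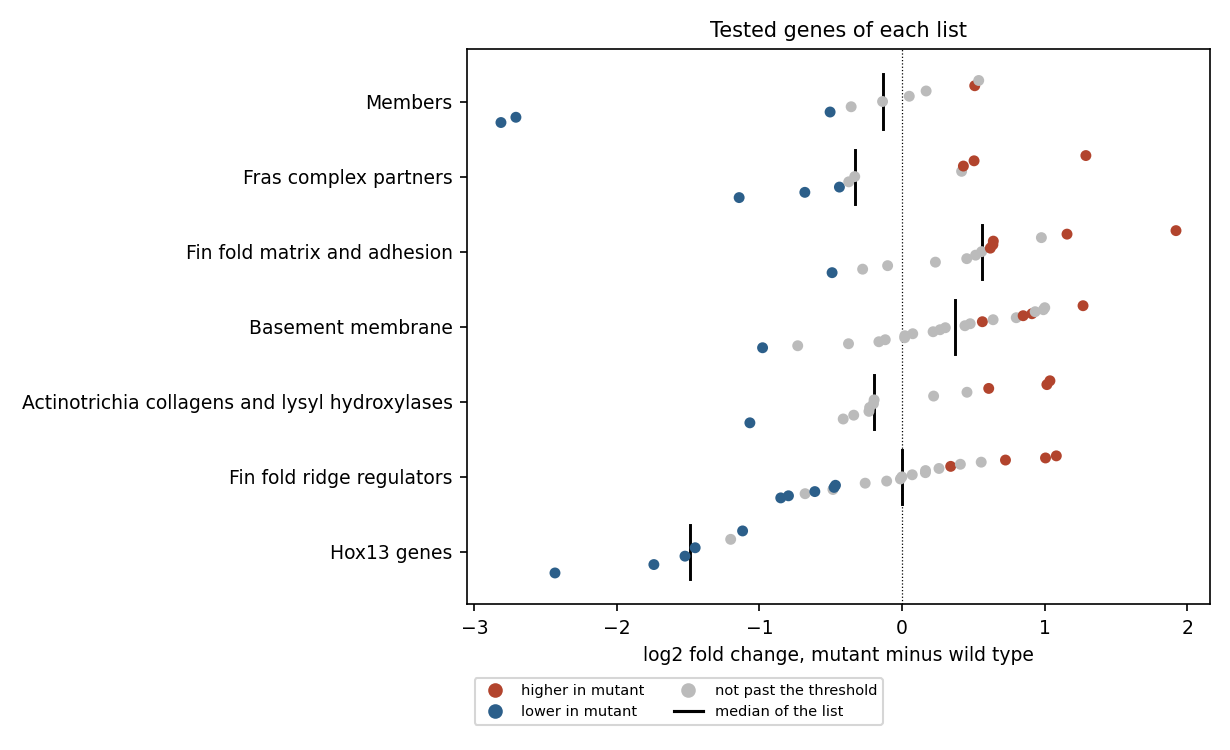
Log2 fold change of mutant minus wild type (horizontal axis) for each tested gene of the 9 members and of the 6 lists, with genes called higher in red, called lower in blue and the others in grey; black bars are list medians. Medians run from −1.49 for the Hox13 genes to 0.56 for the fin fold matrix and adhesion genes, and and1 and and2 lie lower than every gene of the 6 lists.

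Markers of 7 cell types, not all of them near the fold, were read from whole embryos and are given as summed levels. Their part in the differences above was not tested. Counts of called markers stand beside 15.8% higher and 16.3% lower over all tested genes. Markers listed for fin fold mesenchyme were led by pdgfra, prrx1a and twist3. They summed to 269 to 328 CPM in the mutant and 189 to 222 CPM in wild type. Of these 7, pdgfra and prrx1a were called higher and none lower, with a median log2 fold change of 0.077. For prrx1b and twist2, named after their values were seen and not called, every mutant pool was below every wild-type pool. That held for 17.6% of all tested genes. Levels in whole embryos do not place these transcripts in the fold. Basal epidermis markers were led by krt5, epcam and cdh1. They summed to 1006 to 1563 CPM in the mutant and 1280 to 2303 CPM in wild type. Most of this sum was krt5, which was not called (882 ± 183 CPM in the mutant and 1396 ± 436 CPM in wild type). Of the 8 markers 2 were higher, epcam and cdh1, and 2 lower. The 2 that fell were the keratin gene krtt1c19e (1.82 ± 0.451 CPM in the mutant and 18.9 ± 6.71 CPM in wild type) and col17a1b (0.139 ± 0.0876 and 0.769 ± 0.258 CPM), both named after their values were seen. col17a1b was scarce, at 0.0446 to 0.2525 CPM in the mutant pools, so its difference rests on few counts. Periderm markers were led by krt4, krt92 and ppl. They summed to 10190 to 15360 CPM in the mutant and 9874 to 13310 CPM in wild type. Most of this sum was krt4, which was not called (10840 ± 2009 CPM in the mutant and 10590 ± 1177 CPM in wild type). Of the 7 markers 1 was higher, cldne, and 1 lower, krt91. Without wild-type pool 4 the periderm count became 5 higher, and 2 without mutant pool 1.

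Ionocyte markers, led by atp6v1aa, atp1b1b and foxi3b, summed to 51.5 to 93.2 CPM in the mutant and 65.9 to 144.5 CPM in wild type, with none of 5 tested higher and 1 lower, atp1b1b, or 2 lower without mutant pool 1. Hatching gland markers, led by he1.1, he1.2 and ctslb, had 2 of 6 rows higher, he1.3 and klf17, and all 6 without wild-type pool 4; he1.1 stands on 2 rows, so its division of reads is uncertain. Notochord markers, led by col8a1a, matn4 and ctgfa, summed to 519 to 671 CPM in the mutant and 637 to 668 CPM in wild type, with tbxta and foxa2 higher among 7 and matn4 and ctgfa lower. The number of notochord markers that rose was 1 without any 1 of mutant pools 2, 3 and 4 and wild-type pools 1, 2 and 4. Skeletal muscle markers, led by mylpfa, actc1b and myhz1.1, fell in 8 of 8 cases and summed to 742 to 919 CPM in the mutant, against 4006 to 6368 CPM in wild type. With the share of ribosomal protein counts in the fit, 4 notochord and 2 periderm markers were higher and 1 mesenchyme marker was lower. DESeq2 called 4 hatching gland and 2 periderm markers higher and 1 mesenchyme marker lower. No marker list had a row at 0 in every library.

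The genes with the most similar levels over the 8 libraries were looked up for 1 gene per family, among 14663 genes with a mean of at least 1 CPM, by the Pearson r of log2 CPM. All genes are read from the same 8 libraries, with their depths and genotype difference in common, so r is given as a description. For and1 they were tnnt3b, a fast troponin T gene (r = 0.99, and 0.91 after the genotype means were removed), and2 (0.99 and 0.90) and bhlha9 (0.99 and 0.88). tnnt3b stood at 4.46 ± 2.73 CPM in the mutant and 80.4 ± 33.4 CPM in wild type, and bhlha9, a transcription factor gene of limb buds in mammals, at 1.41 ± 0.302 and 7.51 ± 2.08 CPM (SD, n = 4 each). For fras1 they were cdh23, fkbp10a and pde10a, each with r = 0.99 both before and after the removal of genotype means. For hmcn1 they were anxa13, cpn1 and the serine synthesis gene psat1, with r = 0.9973, 0.9965 and 0.9963. These fell to 0.86, 0.86 and 0.82 once the genotype means were removed.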

How the data were processed

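The deposited table holds expected counts for each gene and library, unscaled, which the authors made from the reads; the submitters' processing notes name Trimmomatic, STAR 2.7, RSEM and the build danRer11. No source used here gives their settings, the annotation or how strand was handled. In RSEM, reads are split among the places they match, so similar genes may share reads, and overlapping or antisense genes may not be resolved. Per the labels' protocols, RNA was depleted of ribosomal RNA and reverse transcribed with random primers.

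The values were rounded, filtered with filterByExpr, scaled by TMM and tested two-sided with edgeR 4.0.16 (robust glmQLFit, glmQLFTest; R 4.3.3). P-values were adjusted over all tested genes by the method of Benjamini and Hochberg, with a threshold of 0.05. SE is the log2 fold change over the square root of F. Permutation tests used log2(CPM + 0.5) over all 70 splits. DESeq2 1.42.0 was among the alternatives. The procedure was tested on simulated data in which genes varied independently, so the spread that genes share between pools was not covered. Of the listed symbols, 141 of 142 matched. No libraries of 1 genotype lay within sampling noise of each other (lowest chi-square per degree of freedom 5.80, wild-type pools 1 and 3). The members and lists were chosen with earlier results of these data known. All members are named, with the 4 genes of smallest p per related list, the 3 of highest CPM per marker list and the 3 most similar genes for and1, fras1 and hmcn1, clone and locus identifiers passed over.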

Additional observations from a re-analysis of the deposited data

Results flagged for a closer look

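Levels were screened for a library far from the 3 others of its genotype, by the gap to its nearest neighbour over the group's range. Of 108 groups of 4 libraries 16 were picked out, and none of the 9 members was among them. By chance about 5% of independent groups would be picked. These groups are read from the same 8 libraries, so the 16 cannot be judged against that share. Wild-type pool 4 accounts for 8: it was high for lama5 (222 CPM, others 130.0 to 144), nid1b (80.8, others 56.8 to 60.4), lamb1a (262, others 161 to 163), krt5 (2046, others 1122 to 1239), foxi3b (12.8, others 4.29 to 4.74), ctslb (224, others 20.7 to 25.9), he1.2 (342.5, others 17.3 to 27.8) and he1.1 (645.5, others 90.1 to 136). Mutant pool 2 was high for cdh1 (151 CPM, others 97.2 to 103), ppl (539, others 334 to 362), atp6v1aa (52.6, others 36.7 to 38.1) and atp1b1b (21.7, others 7.43 to 8.50). Mutant pool 1 was low for fn1b (147.9 CPM, others 386.5 to 392) and col8a1a (149.5, others 344 to 359), and high for fgf24 (7.83, others 6.28 to 6.51). Wild-type pool 1 was low for col1a1a (914 CPM, others 1097 to 1122).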

How the results depend on the processing

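The differences of and1, and2 and hmcn1 kept their direction and their call in 18 of 18 alternatives, with log2 fold changes from −3.06 to −2.38, from −3.02 to −2.48 and from 0.46 to 0.53. With the share of ribosomal protein counts in the fit, frem2a (−0.51) and hmcn2 (−0.42) became called, fras1 turned to −0.088, 5 members were lower, 5613 genes were higher and 5936 lower over the table, and 28 related genes were lower and 28 higher. Without mutant pool 1 and wild-type pool 4 together, fras1 (0.52) and frem2b (1.34) became called, and3 turned to −0.57 and hmcn2 to 0.27, 3 members were higher, 5656 genes were higher and 5729 lower, and 35 related genes and 18 marker genes were higher. In both cases the cause was not tested. Mutant pool 1 was the lowest mutant pool and wild-type pool 4 the highest wild-type pool for fras1, frem2b and hmcn2. Their removal raises these fold changes by construction. Total counts alone ended the call of frem1a (−0.52), and upper quartile scaling turned and3 to −0.011. With 1 library left out, the log2 fold change ran from −0.345 to 0.35 for and3, from −0.049 to 0.37 for fras1, from −0.62 to −0.39 for frem1a and from −0.36 to 0.085 for hmcn2, the number of related genes called higher from 14 to 29 and of marker genes called higher from 8 to 16. The shared replicate numbers were not taken as pairs: deviations of same-numbered libraries correlated at 0.65, 0.17, −0.27 and 0.09, and with the replicate block and1 was at −2.64, with 3525 genes higher and 3668 lower. Not every library correlated best with its own number. Low counts limit the precision of and3, and4 and the marker col17a1b.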
